A study of Mus musculus with 12 samples.

Results

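The genes described are 46 that carry a proteasome symbol, chosen by that symbol and by a minimum level. Of the mouse gene symbols in the count tables, 54 began with Psm, a letter from a to g and a number. The 3 immunoproteasome subunit genes (Psmb8, Psmb9 and Psmb10) and 4 pseudogenes were set aside, and 46 of the other 47 had more than 1.5 read counts per 1000000 (CPM) in at least 2 libraries. The exception was Psmb11, the thymus-specific beta subunit, which was above this level in no library. The 46 genes were among 11228 that passed the same minimum. They comprise 7 alpha and 7 beta subunits of the 20S core, 6 ATPases and 11 non-ATPase subunits of the 19S regulatory particle, 3 chaperones of 19S assembly, 5 activators, 1 inhibitor, 4 chaperones of 20S assembly, the germ-cell alpha subunit Psma8, and Psmc3ip. Psmc3ip encodes HOP2, a protein of meiotic recombination and no part of the proteasome; it entered by its symbol alone, and the other 45 are proteasome genes. The set does not hold the whole proteasome, since Adrm1 (Rpn13) and Sem1 (Rpn15), subunits of the 19S particle with other symbols, are outside it and are given with other genes of the ubiquitin-proteasome system.

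RNA-seq was performed on bone marrow-derived macrophages (BMDMs), which are cells grown from mouse bone marrow in M-CSF. The labels give WT cells as C57BL/6 and knockout cells as Acod1-/- on C57BL/6NJ (the Acod1em1(IMPC)J allele), while the study's methods give C57BL/6NJ for the WT donors too, all of them male and 7 to 11 weeks old. Itaconate is formed in mitochondria by the product of Acod1. Each genotype had a vehicle group (Control), a group given urban particulate matter (PM) at 20 µg/cm2 for 24 h, and a group given 4-octyl itaconate (OI), a cell-permeable itaconate ester and an electrophile, at 0.25 mM for 2 h before the same PM exposure (OI+PM). There were 2 libraries in each of the 6 groups, 12 in all, and no group received OI alone. The labels do not say whether the 2 libraries of a group came from separate animals or cultures, so p-values measure only the spread between libraries, which may be technical. In bulk RNA, fewer cells of a type and less RNA per cell cannot be told apart.

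The 20S core is a barrel of stacked alpha and beta rings, and the beta subunits Psmb5, Psmb6 and Psmb7 carry its chymotrypsin-like, caspase-like and trypsin-like sites. The 19S particle caps the barrel, binds ubiquitylated proteins, removes the ubiquitin and feeds the chain in through an ATPase ring. In macrophages exposed to interferon, Psmb8, Psmb9 and Psmb10 replace the catalytic subunits and the activator PA28 (Psme1 and Psme2) is raised, whereas transcription of the standard subunits is known to respond to loss of proteasome activity through NRF1 (Nfe2l1) and, for some subunits, to electrophiles through NRF2 (Nfe2l2).

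Total counts per library lay between 33616577 and 36817898. Acod1 read 1.84 and 2.49 in WT Control, 181 and 170.3 in WT PM and 32.6 and 57.1 in WT OI+PM on the scale of TMM-normalized CPM, and 1.26 and 1.22 in Acod1-/- Control, 108 and 94.1 in Acod1-/- PM and 24.4 and 26.8 in Acod1-/- OI+PM. It was lower in both libraries of every group labelled Acod1-/- than in the matching WT group, but reads remained, and a count summed over the gene cannot show a deleted stretch. The difference did not pass the threshold in Control, PM or OI+PM cells (adjusted p = 0.492, 0.0807 and 0.0509), so the groups are named by their labels. All 8 macrophage markers looked up were tested. Lyz2 made up 63.3 to 79.2% of their counts, and the other 7 summed to 4807 to 5572 CPM of total counts in the 4 Control libraries, 5511 to 6551 in the 4 PM libraries and 4181 to 4654 in the 4 OI+PM libraries. With PM, 5 of the 8 rose in WT and 4 in Acod1-/-, where 12.6% and 12% of all genes rose. With OI 6 fell in each genotype (Adgre1, Csf1r, Cd14, Mertk, Lyz2 and Fcgr1), where 22.6% and 20.6% of all genes fell, and Cd68 rose in WT by 0.21 on the log2 scale (adjusted p = 0.0451); the part of this in the results was not tested. Of 21 markers of neutrophils, dendritic cells, B cells, T cells, fibroblasts and erythroid cells only S100a8 passed the minimum, with 127 to 167 counts in Control, 349 to 529 in PM and 961 to 1787 in OI+PM libraries, while Ly6g had at most 1 count; the part of such cells in the results was not tested. Replicates differed by more than sampling noise in every group, by a chi-square per degree of freedom of 2.61 to 8.32 in the 3 Acod1-/- groups and WT Control, 27.3 in WT PM and 58.5 in WT OI+PM. WT OI+PM replicate 2 stood apart in the proteasome genes, as described next, so the main results that use it are also given without it.

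The 31 genes of the set that encode standard subunits of the 26S particle (14 of the core and 17 of the 19S particle, without Adrm1 and Sem1) were read together as one summed level in normalized CPM. The sum was 3406 and 3464 in the WT Control libraries, 4079.8 and 4703 in WT PM, and 4689.8 and 6252 in WT OI+PM. In Acod1-/- cells it was 3417 and 3415 in Control, 4284 and 3977 in PM, and 4547 and 4653 in OI+PM. The 4 Control libraries were the lowest and close to each other, every PM library lay above every Control library, and WT OI+PM replicate 2 lay above all the others, whereas WT OI+PM replicate 1 lay just under WT PM replicate 2. Group means ± SD (n = 2) were 3435 ± 40.7, 4391 ± 441 and 5471 ± 1104 in WT, and 3416 ± 1.13, 4130.3 ± 217 and 4600.0 ± 74.7 in Acod1-/-. WT OI+PM replicate 2 was the highest of the 12 libraries for 29 of the 31 genes (93.5%), the other 2 being Psma3 and Psmd1, and for 32.3% of all genes, and the 2 WT OI+PM libraries differed by a median of 0.46 log2 units over the 31, against 0.24 between the WT PM libraries and 0.04 between the WT Control libraries.

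**Figure D1:**
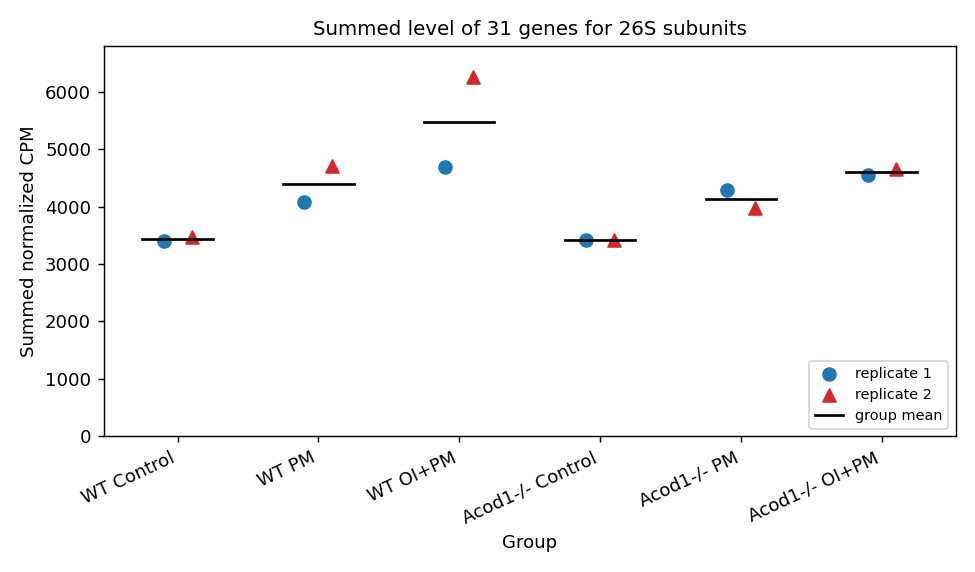
Summed TMM-normalized CPM of the 31 genes for 26S subunits (vertical axis, linear from 0) in each of the 6 groups; circles are replicate 1, triangles replicate 2, and the line is the group mean. The 4 Control libraries sit between 3406 and 3464, and WT OI+PM replicate 2 at 6252 lies apart from its partner at 4690.

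This replicate gap also moved with transcript length. Over the 11208 tested genes with an exonic length, the log2 difference of WT OI+PM replicate 2 from replicate 1 had a Spearman rho of -0.61 with length (shorter genes higher in replicate 2), and the value was -0.60 for WT PM, -0.28 for WT Control, 0.36 for Acod1-/- PM, -0.29 for Acod1-/- OI+PM and 0.08 for Acod1-/- Control. Over the 31 subunit genes the same rho was -0.52 in WT OI+PM, -0.51 in WT PM, -0.16 in WT Control, 0.31 in Acod1-/- PM, 0.01 in Acod1-/- OI+PM and -0.03 in Acod1-/- Control. The changes between groups moved with length as well. For PM the rho of the log2 fold change with length was -0.57 over the 31 and -0.46 over all genes in WT, and -0.47 and -0.40 in Acod1-/-. For OI it was 0.05 and -0.18 in WT, and 0.34 and -0.02 in Acod1-/-. The proteasome genes are short, with a median exonic length of 2800 bases for the 45 against 4479.5 for all tested genes with a length. These are descriptions over genes of the same libraries, and the part of length in the changes of single genes was not tested; counts and medians under a length-adjusted fit (a gene length offset) are given below with the main ones.

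Levels differed widely among subunits that share 1 particle. Per kilobase of exonic length, averaged over the 12 libraries, the 31 subunit genes had a median of 44.4 normalized CPM and ranged from 5.94 for Psma3 to 153 for Psma6, against a median of 6.20 over all tested genes with a length. The core genes (median 42.0) and the 19S genes (median 44.4) were close. Psmd8, which encodes a lid subunit (Rpn12), was the highest 19S gene at 120.3 and Psmd11 the lowest at 14.5. Chaperones were lower, with medians of 9.21 for 20S assembly and 11.5 for 19S assembly, and Psma8, the testis alpha subunit, was at 0.972. Exonic length was taken over all annotated transcripts, so a gene with long minor transcripts reads low per kilobase. Exons of 13 of the 46 genes overlap those of another annotated gene (Psma4, Psma5, Psmb5, Psmb7, Psmc3, Psmc3ip, Psmd1, Psmd3, Psmd9, Psmd13, Psme1, Psme2b and Psmg3), so their counts are less certain.

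The promoters of 38 of the 46 genes could be read from RefSeq (GRCm38.p6), as 250 bases before and 50 after the gene start. Letter patterns were looked up on both strands in the 250 bases before the start, and 7 were tried. A gene with more than 1 window (the 38 have 41) was counted once, with the letters in any of them, and so were the 27025 genes of the whole promoter table. The core of the antioxidant response element, TGACNNNGC, was found in 5 of the 38 (13.16%), which were Psmb5, Psmb6, Psmc6, Psmd9 and Psmd12, and in 11.52% of all genes. Its fuller form TGACTCAGC was in none of the 38 and in 0.43% of all genes, and a looser form, which can overlap it, was in 2.63% and 12.3%. The ETS-type letters GCGGAAG were in 15.79% against 5.08%, CCAAT in 34.21% against 37.49%, the core of the interferon-stimulated response element in 7.89% against 3.46%, and the heat shock letters TTCNNNGAA in 2.63% against 8.13%. A match is a description and not a bound site. The 250 bases before the RefSeq start of 3 genes are shown 5′ to 3′ on the gene's own strand, with TGACNNNGC in capitals: Psmb5 and Psmb6, catalytic genes that hold it 47 and 9 bases before the start, and Psmd11, the gene with the largest rise with OI (below), which does not hold these letters in this window. Psmb5 lies at chr14:54614119-54618022 (minus strand) and Psmd11 at chr11:80428615-80473248 (plus strand) in the annotation. The RefSeq start of Psmb5 lies 27 bases inside the gene as annotated there, so the last 27 bases shown are not upstream of that start and TGACNNNGC lies 20 bases before it, whereas that of Psmb6 lies 10 bases before the annotated gene and that of Psmd11 is the same.
Psmb5 (chr14:54617996-54618245, minus strand): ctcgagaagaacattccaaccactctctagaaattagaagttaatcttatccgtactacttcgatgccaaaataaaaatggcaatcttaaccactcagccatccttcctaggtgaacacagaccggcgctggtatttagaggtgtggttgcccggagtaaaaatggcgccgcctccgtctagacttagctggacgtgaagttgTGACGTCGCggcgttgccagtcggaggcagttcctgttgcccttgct
Psmb6 (chr11:70525107-70525356, plus strand): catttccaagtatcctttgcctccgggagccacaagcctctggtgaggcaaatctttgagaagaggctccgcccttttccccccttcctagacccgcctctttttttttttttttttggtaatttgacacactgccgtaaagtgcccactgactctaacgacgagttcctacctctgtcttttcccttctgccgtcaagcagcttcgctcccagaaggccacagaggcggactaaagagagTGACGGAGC
Psmd11 (chr11:80428365-80428614, plus strand): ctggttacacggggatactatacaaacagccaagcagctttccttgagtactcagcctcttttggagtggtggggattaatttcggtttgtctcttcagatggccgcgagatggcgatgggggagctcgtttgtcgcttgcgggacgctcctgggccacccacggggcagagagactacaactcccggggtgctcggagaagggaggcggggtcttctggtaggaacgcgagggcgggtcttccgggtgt

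With PM alone, Psme2, a subunit of the activator PA28, rose most. Of the 31 core and 19S subunit genes, 9 (29%) rose in WT and 3 (9.68%) in Acod1-/-, where 12.6% and 12% of all genes rose, and all 31 had a positive log2 fold change in both genotypes, as 5812 and 5608 of all 11228 genes did. Log2 fold changes are given with their SE throughout. In WT BMDMs, 13 of the 46 genes rose and none fell by the quasi-likelihood test of edgeR, with p adjusted by Benjamini-Hochberg over all 11228 genes, where 12.6% of all genes rose and 12.2% fell (24.8% in either direction). The median log2 fold change of the 46 was 0.35, against 0.01 over all genes. In Acod1-/- BMDMs 7 rose and none fell, where 12% of all genes rose and 11.9% fell (23.9% in either direction), and the median was 0.26, against 0.00 over all genes. Every one of the 31 subunit genes was higher in both PM libraries than in both Control libraries of its genotype, in WT and in Acod1-/-, a pattern that 37% and 38.2% of all genes showed. Only Psme2 passed 2-fold in either genotype, where 4.15% and 4.5% of all genes were called at that size, and under the length-adjusted fit it was under 2-fold in both, at 0.88 and 0.98 on the log2 scale, and still called. The counts changed with the libraries kept in the fit, for reasons that were not tested. In WT the count was 2 and 3 without WT Control replicate 2 or 1 (where 11.3% and 10.6% of all genes were called), 3 without WT PM replicate 2 (12.4%), 8 without either Acod1-/- Control library (18.7%), 26 without WT PM replicate 1 (30.7%) and 36 without either WT OI+PM library (without replicate 2, 22.9% of all genes rose and 22.1% fell, 45% in all), and the median was 0.22 and 0.45 without WT PM replicate 2 or 1. In Acod1-/- it was 4 without Control replicate 1 or PM replicate 1 (12.5% and 12.4%) and 27 without either WT OI+PM library (without replicate 2, 19.6% of all genes rose and 20.2% fell, 39.8% in all). Psmd5 and Psme2 in WT, and Psmd5, Psmd10, Psme1 and Psme2 in Acod1-/-, were called under each of the 23 alternatives run. Under the length-adjusted fit 20 rose in WT (median 0.23) and 13 in Acod1-/- (median 0.16), and none fell, where 29.6% and 29.5% of all genes were called.

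**Figure D2:**
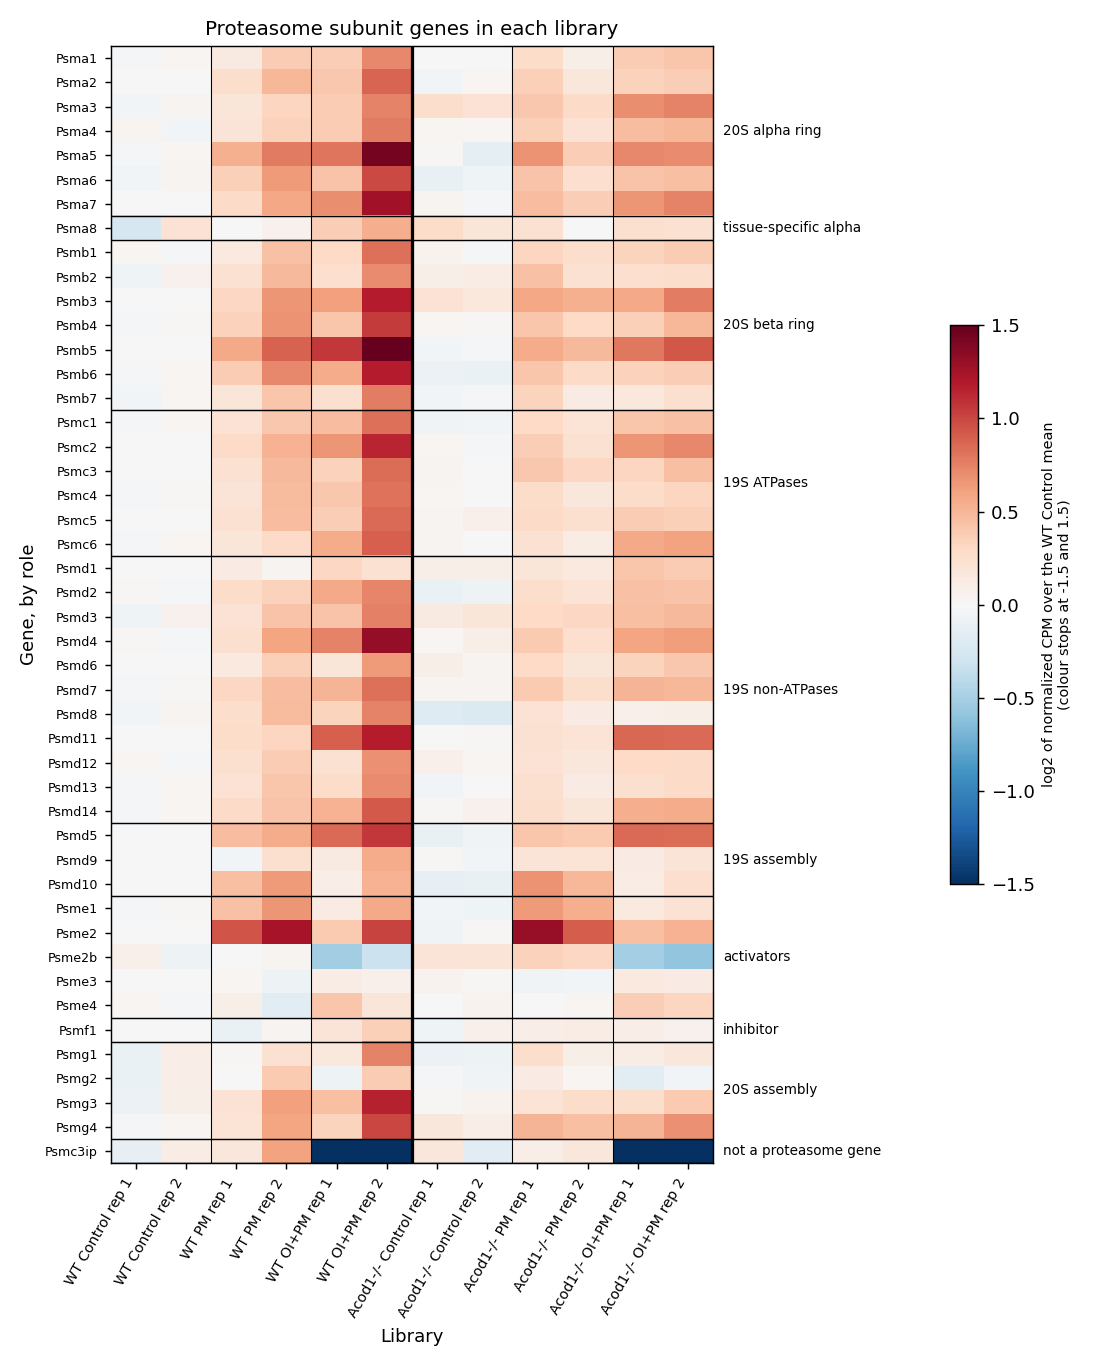
Each of the 46 genes (rows, grouped by role) in each of the 12 libraries (columns), as the log2 ratio of normalized CPM to the WT Control mean; colour stops at -1.5 and 1.5. Red deepens from Control to PM across the core and 19S rows and is deepest in WT OI+PM replicate 2, while Psme2 is deep red in all 4 PM libraries and Psme2b and Psmc3ip turn blue in all 4 OI+PM libraries.

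In the 20S core, the catalytic gene Psmb5 stood at 25.97 and 25.7 normalized CPM in WT Control and 38.5 and 47.9 in WT PM. In Acod1-/- cells the values were 25.1 and 25.5 in Control and 38.0 and 36.2 in PM. The groups did not overlap in either genotype, and Psmb5 rose in WT by a log2 fold change of 0.74 ± 0.19 (adjusted p = 0.0174), with 0.55 ± 0.19 (adjusted p = 0.0561) in Acod1-/-. The WT call was lost without WT PM replicate 2 or either WT Control library. Psmb6 rose in WT by 0.56 ± 0.17 (adjusted p = 0.0398), from 145 and 151 to 193 and 245 normalized CPM, and was 0.45 ± 0.17 (adjusted p = 0.0895) in Acod1-/-. This call held in 14 of 23 alternatives and was lost without WT PM replicate 2, either WT Control library or any 1 of the 6 Acod1-/- libraries. Psmb7 gave 0.30 ± 0.15 (adjusted p = 0.156) and 0.27 ± 0.15 (adjusted p = 0.218). Of the alpha ring, which gates the entrance, Psma5 rose in both genotypes, by 0.66 ± 0.19 (adjusted p = 0.0292) in WT and 0.59 ± 0.19 (adjusted p = 0.0457) in Acod1-/-. The Acod1-/- call of Psma5 held in 14 of 23 alternatives (adjusted p up to 0.276) and was lost with a minimum of 1.5 CPM in every library and without either WT Control library or any 1 of the 6 Acod1-/- libraries, and its WT call was lost in the same 3 fits as that of Psmb5. Psma6 rose in WT by 0.50 ± 0.16 (adjusted p = 0.0416), a call lost in the same fits as that of Psmb6. The other 10 core genes had log2 fold changes of 0.25 to 0.52 in WT with none past the threshold. Psma8 gave 0.02 ± 0.17 (adjusted p = 0.932) in WT.

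Of the 19S particle, none of the 6 ATPase genes passed the threshold with PM, although their log2 fold changes lay between 0.24 (Psmc6) and 0.41 (Psmc2) in WT and between 0.14 and 0.33 in Acod1-/-. Among the 11 non-ATPase genes, Psmd2, Psmd7, Psmd8, Psmd11 and Psmd14 rose in WT and Psmd2 and Psmd8 in Acod1-/-. In WT the calls of Psmd8 and Psmd14 each held in 13 of 23 alternatives (adjusted p up to 0.276 and 0.24) and were lost with total count scaling and without WT PM replicate 2, either WT Control library or any 1 of the 6 Acod1-/- libraries. Psmd7 and Psmd11 were called in 20 and 18 of the 23, and neither was without WT PM replicate 2 or either WT Control library, nor Psmd11 without either Acod1-/- Control library. In Acod1-/- Psmd8 was called in 14 of 23 (adjusted p up to 0.22), and not with total count scaling or without either WT Control library or any 1 of the 6 Acod1-/- libraries. Psmd2, which encodes the scaffold Rpn1, had the smallest error among those called, at 0.31 ± 0.06 (adjusted p = 0.00652) in WT and 0.32 ± 0.06 (adjusted p = 0.00532) in Acod1-/-, calls lost only without WT Control replicate 2 in WT (adjusted p = 0.0616) and without Control replicate 1 or PM replicate 1 in Acod1-/- (adjusted p up to 0.0554). Psmd14, the deubiquitylating enzyme Rpn11, gave 0.36 ± 0.11 (adjusted p = 0.0426) and 0.18 ± 0.11 (adjusted p = 0.269), and Psmd4, the ubiquitin receptor Rpn10, 0.43 ± 0.17 (adjusted p = 0.0845) and 0.27 ± 0.17 (adjusted p = 0.267). Psmd1, a scaffold, moved least, by 0.08 ± 0.05 (adjusted p = 0.265) in WT.

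The 19S chaperone genes Psmd5 and Psmd10 rose with PM in both genotypes. Psmd5 (S5b) was 58.9 and 59.2 normalized CPM in WT Control and 81.5 and 86.8 in WT PM, and 54.9 and 57.0 and 78.7 and 77.6 in the Acod1-/- groups. Both PM groups lay above both Control groups, with log2 fold changes of 0.51 ± 0.08 (adjusted p = 0.00111) and 0.48 ± 0.08 (adjusted p = 0.00139). Psmd10 (gankyrin) rose by 0.55 ± 0.13 (adjusted p = 0.0131) and 0.70 ± 0.13 (adjusted p = 0.00341), the WT call being lost in the same 3 fits as that of Psmb5, and Psmd9 gave 0.10 ± 0.13 (adjusted p = 0.561) and 0.21 ± 0.13 (adjusted p = 0.263). None of the 20S chaperone genes Psmg1, Psmg2, Psmg3 and Psmg4 passed, with log2 fold changes from 0.13 (Psmg1) to 0.43 (Psmg3) in WT, and these genes are low, at 270 to 632 counts a library.

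The activator genes did not move together. Psme2, the beta subunit of PA28, had 37.5 and 37.0 normalized CPM in WT Control, 71.7 and 87.7 in WT PM, 36.0 and 37.6 in Acod1-/- Control and 92.1 and 70.2 in Acod1-/- PM. It rose by a log2 fold change of 1.10 ± 0.19 (adjusted p = 0.00261) in WT and 1.14 ± 0.19 (adjusted p = 0.00181) in Acod1-/-, the largest PM change among the 46 in both genotypes. Psme1, the alpha subunit of PA28, rose by 0.56 ± 0.13 (adjusted p = 0.0124) and 0.64 ± 0.13 (adjusted p = 0.00542), and its WT call was lost in those 3 fits too (without WT PM replicate 2 or either WT Control library). Psme3 (PA28 gamma, nuclear) gave -0.03 ± 0.06 (adjusted p = 0.75) in WT, Psme4 (PA200) -0.04 ± 0.10 (adjusted p = 0.776), and the inhibitor Psmf1 (PI31) -0.02 ± 0.08 (adjusted p = 0.843), none of which passed. In Acod1-/- the same 3 genes gave -0.08 ± 0.06, -0.01 ± 0.10 and 0.10 ± 0.08, and none passed. Psme2b, a single-exon gene close in sequence to Psme2, had 74 to 148 counts a library, and reads of the pair may have been split by the counting.

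With OI before PM, 13 of the 31 core and 19S subunit genes rose over PM alone in WT and 7 in Acod1-/-, where 21.3% and 13.9% of all genes rose. Over the 31 the median log2 fold change in WT was 0.29, or 0.11 without WT OI+PM replicate 2 and 0.49 without replicate 1. Over all genes these medians were 0.02, 0.01 and 0.02. Replicate 2 was left out because it was the highest library for 29 of the 31, so a lower value without it was set in advance. Psme1 and Psme2 of PA28 rose in neither genotype. In WT, 16 of the 46 genes rose and 2 fell against PM alone, where 21.3% of all genes rose and 22.6% fell (43.9% in either direction). The median log2 fold change was 0.29, against 0.02 over all genes. Fitted with the WT PM and WT OI+PM libraries alone, only Psmd11 and Psmc3ip were called, where 17.3% of all genes were. In Acod1-/-, 10 rose and 5 fell, where 13.9% of all genes rose and 20.6% fell (34.6% in either direction), and the median was 0.11, against 0.00. No proteasome gene reached 2-fold in either genotype, where 10.8% and 9.83% of all genes were called at that size (Psmc3ip, no proteasome gene, did). Psmc3ip fell by 2.27 and 1.97 on the log2 scale in WT and Acod1-/-, from 4.11 and 5.53 to 1.14 and 0.846 normalized CPM in WT and from 3.91 and 4.11 to 1.14 and 0.893 in Acod1-/-. It passed the minimum in the 8 Control and PM libraries only, so a gene entered in this way had to be lower with OI, and its fall is no result of the comparison.

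The WT values rest in part on WT OI+PM replicate 2. Without that library, 8 of the 46 rose and 5 fell, where 18.4% and 22.2% of all genes did (40.6% in all), and the median was 0.05. The 8 that rose were Psmb5, Psmc6, Psmd1, Psmd2, Psmd4, Psmd5, Psmd11 and Psme4, and the 5 that fell were Psmc3ip, Psmd10, Psme1, Psme2 and Psme2b. Of the 31 subunit genes, 20 had a positive log2 fold change without that library, against all 31 with it (5694 and 5884 of all 11228 genes), and the median of the 31 was 0.11 in place of 0.29. That fit sets replicate 1 of WT OI+PM against both WT PM libraries, of which replicate 2 was the higher in summed level. Taken within a replicate number, WT OI+PM lay above WT PM for 30 of the 31 in replicate 1 (all but Psmd12, median log2 difference 0.19) and for 31 in replicate 2 (median 0.38), where 50.5% and 53.1% of all genes did. In Acod1-/- the same counts were 22 and 30 (medians 0.09 and 0.23), where 49% and 49.9% of all genes did. These are descriptions, since the labels do not say that a number marks a shared culture or day. In Acod1-/-, where the PM replicates differed by a median of -0.11 and the OI+PM replicates by 0.03 log2 units (replicate 2 less replicate 1), the median of the 31 was 0.17, with 7 risen, none fallen and 28 positive (5607 of all 11228 genes). Both OI+PM libraries lay above both PM libraries for 14 of the 31 in WT and 22 of the 31 in Acod1-/-, where 29.7% and 36.7% of all genes did, and below them for 1 in Acod1-/-, where 37.7% did. The WT count was 8 without WT PM replicate 1 (32.6% of all genes), where the calls of Psma3, Psma4, Psma7, Psmb5, Psmc1, Psmc2, Psmd4, Psmd7, Psmd14 and Psmf1 were lost, and 37 without WT OI+PM replicate 1 (60.3%). The Acod1-/- count was 9 without any 1 of the 4 Control libraries (30.8 to 31.1%), 5 without either Acod1-/- OI+PM library (24.2% and 23.9%), 6 and 5 without Acod1-/- PM replicate 1 or 2 (25.5% and 24.8%), and 21 without either WT OI+PM library (44.8%). Scaled by total counts, which moved the median of all genes to -0.11 in WT and -0.07 in Acod1-/-, 8 rose and 5 fell in WT (median 0.15), and 4 rose and 5 fell in Acod1-/- (median 0.04), where 42.1% and 34.1% of all genes were called. Under the length-adjusted fit, 21 of the 46 rose and 5 fell in WT (median 0.23) and 14 rose and 5 fell in Acod1-/- (median 0.10), where 52.4% and 43.7% of all genes were called. Of the proteasome genes, Psmd11 in WT, and Psmd5, Psmd11 and Psme2b in Acod1-/-, were called under each alternative run.

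**Figure D3:**
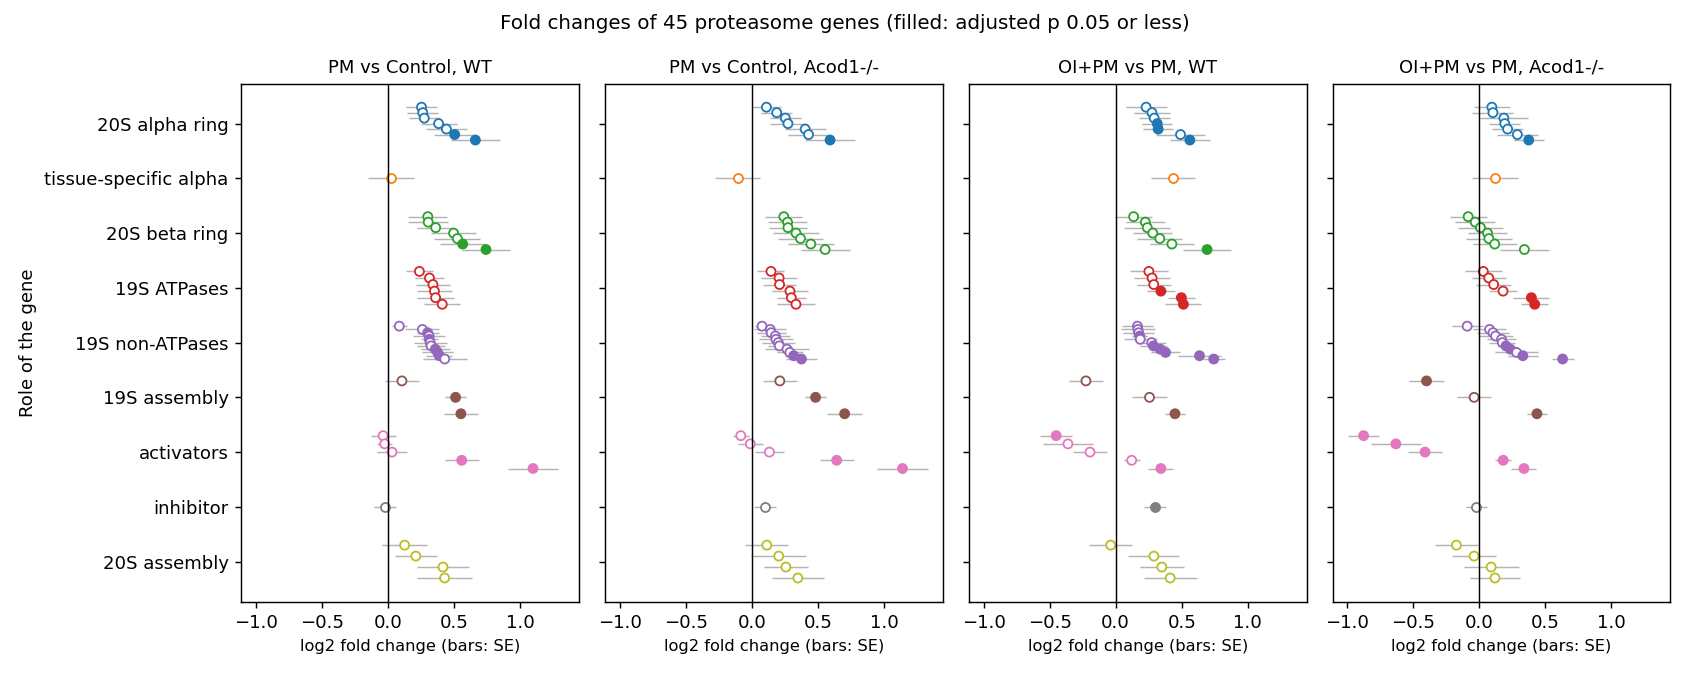
Log2 fold change (horizontal axis; grey bars are SE) of the 45 proteasome genes by role (vertical axis) in 4 comparisons, filled where the adjusted p is 0.05 or less. The core and 19S points lie right of zero in both PM panels and in the WT OI+PM panel, and 3 of the 5 activators lie left of zero in both OI+PM panels.

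Psmd11, which encodes the 19S lid subunit Rpn6, showed the largest rise with OI in both genotypes in the main fit. Without WT OI+PM replicate 1, Psmb5 (0.99) and Psmd4 (0.90) lay above Psmd11 (0.87) in WT. Its normalized CPM was 67.2 and 67.2 in WT Control, 81.5 and 83.8 in WT PM and 125 and 152 in WT OI+PM. In the knockout it was 67.6 and 68.1 in Acod1-/- Control, 79.0 and 77.7 in Acod1-/- PM and 122 and 121 in Acod1-/- OI+PM. All 4 OI+PM libraries lay above all 8 others, and the log2 fold changes over PM were 0.74 ± 0.08 (adjusted p = 5.7e-05) in WT and 0.63 ± 0.08 (adjusted p = 0.0002) in Acod1-/-, a rise of 1.67-fold and 1.55-fold. Without WT OI+PM replicate 2 the WT value was 0.60 ± 0.06 (adjusted p = 1.42e-05).

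Psmb5 followed a similar order. It had 53.8 and 85.8 normalized CPM in WT OI+PM, both above the WT PM libraries, and 44.6 and 49.4 in Acod1-/- OI+PM, both above the Acod1-/- PM libraries. The log2 fold change was 0.69 ± 0.18 (adjusted p = 0.0117) in WT, 0.32 ± 0.11 (adjusted p = 0.0423) in WT without replicate 2, and 0.34 ± 0.18 (adjusted p = 0.187) in Acod1-/-. The WT call was lost without WT PM replicate 1, at 0.53 (adjusted p = 0.085). The exons of Psmb5 overlap those of the microRNA gene Mir686 on the same strand. The other catalytic genes gave smaller values, at 0.33 ± 0.17 (adjusted p = 0.141) for Psmb6 and 0.23 ± 0.15 (adjusted p = 0.248) for Psmb7 in WT, and 0.01 ± 0.17 and -0.03 ± 0.15 in Acod1-/-. Without WT OI+PM replicate 2 the WT values of Psmb6 and Psmb7 were -0.01 ± 0.11 and -0.06 ± 0.11. Psmb2 was the lowest of the beta ring, at 0.14 ± 0.14 (adjusted p = 0.457) in WT, or -0.11 ± 0.11 without that library.

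The 5 genes with TGACNNNGC had log2 fold changes with OI from 0.17 (Psmd12) to 0.69 (Psmb5) in WT, with a median of 0.33, against a median of 0.29 over the 33 genes whose window lacks these letters. In Acod1-/- they ran from -0.04 (Psmd9) to 0.42 (Psmc6), with a median of 0.10 against 0.12. Without WT OI+PM replicate 2 the WT medians were 0.03 and 0.11, so that the order of the 2 medians in WT turned with that library.

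In the alpha ring Psma3, Psma4 and Psma7 rose in WT and Psma3 rose in Acod1-/-. Psma7 had normalized CPM of 114 and 114 in WT Control, 139 and 170.2 in WT PM and 185 and 272 in WT OI+PM, so that both OI+PM libraries lay above both PM libraries, and gave 0.56 ± 0.15 (adjusted p = 0.0144) in WT, 0.26 ± 0.10 (adjusted p = 0.064) in WT without replicate 2, and 0.29 ± 0.15 (adjusted p = 0.185) in Acod1-/-. Psma6 was the least changed of the ring in WT, at 0.23 ± 0.16 (adjusted p = 0.254). Its WT OI+PM replicate 1, at 199.9 normalized CPM, lay under the WT PM mean of 210.2 but above WT PM replicate 1 at 190.2. With libraries not paired, as fitted, the positive sign rests on replicate 2. Psma3 was called in each genotype, at 0.32 ± 0.11 (adjusted p = 0.0455) in WT and 0.37 ± 0.11 (adjusted p = 0.0264) in Acod1-/-. Its WT call was lost without WT OI+PM replicate 2, at 0.13 ± 0.09 (adjusted p = 0.31), and held in 9 of 23 alternatives. Psma4 was not called without that library either, at 0.11 ± 0.08 (adjusted p = 0.329), and its WT call held in 10 of 23 alternatives. The Acod1-/- call of Psma3 held in 19 of 23 and was lost without any 1 of the 4 Acod1-/- PM and OI+PM libraries (adjusted p up to 0.159).

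In the ATPase ring Psmc1, Psmc2 and Psmc6 rose in WT, and Psmc2 and Psmc6 rose in Acod1-/- as well. Psmc2 gave 0.51 ± 0.14 (adjusted p = 0.0123) and 0.39 ± 0.14 (adjusted p = 0.0478), and Psmc6 0.50 ± 0.10 (adjusted p = 0.0032) and 0.42 ± 0.10 (adjusted p = 0.00966). Psmc3 was the lowest of the ring in WT, at 0.25 ± 0.14 (adjusted p = 0.176). For Psmc3, WT OI+PM replicate 1 stood at 160.6 normalized CPM, under the WT PM mean of 162.8. Of the non-ATPase genes, Psmd1, Psmd2, Psmd4, Psmd7, Psmd11 and Psmd14 rose in WT, and Psmd1, Psmd2, Psmd11 and Psmd14 rose in Acod1-/-. Psmd4 had normalized CPM of 89.5 and 87.3 in WT Control, 105 and 133 in WT PM and 148 and 221 in WT OI+PM, the highest level again in WT OI+PM replicate 2, with a log2 fold change of 0.63 ± 0.17 (adjusted p = 0.0113) in WT, 0.32 ± 0.12 (adjusted p = 0.0476) in WT without that library, and 0.28 ± 0.17 (adjusted p = 0.227) in Acod1-/-. Psmd14 gave 0.38 ± 0.11 (adjusted p = 0.02) and 0.33 ± 0.11 (adjusted p = 0.0439). Psmd12, a lid subunit, was the lowest of the group in WT, at 0.17 ± 0.12 (adjusted p = 0.289). Its WT OI+PM replicate 1, at 117.8 normalized CPM, lay under both WT PM libraries (118.2 and 130.3), so the positive sign rests on replicate 2. Psmd14, Psmc2, Psmc1 and Psmd7 were not called in WT without replicate 2, at 0.17 ± 0.08 (adjusted p = 0.102), 0.25 ± 0.09 (adjusted p = 0.0503), 0.16 ± 0.08 (adjusted p = 0.163) and 0.12 ± 0.08 (adjusted p = 0.261), whereas Psmc6, Psmd1 and Psmd2 were, at 0.31, 0.22 and 0.26. The WT call of Psmd1 held in 17 of 23 alternatives, with log2 fold changes from 0.05 to 0.25. It held in 7 of the 11 that left out no library, and was also lost without WT PM replicate 2 or WT OI+PM replicate 1. The WT call of Psmd7 held in 10 of 23 alternatives. In Acod1-/- the calls of Psmc2, Psmd14 and Psmd2 held in 13, 14 and 14 of 23 alternatives (adjusted p up to 0.232, 0.2 and 0.175). All 3 were lost with total count scaling and without either WT Control library or any 1 of the 6 Acod1-/- libraries, and Psmc2 also with a minimum of 1.5 CPM in every library, whereas Psmd11 was called throughout, Psmc6 in 21 of 23 and Psmd1 in 20 of 23.

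The chaperone gene Psmd5 rose with OI as it had with PM, to 106 and 124 normalized CPM in WT OI+PM and 106 and 105 in Acod1-/- OI+PM. The further log2 fold change was 0.45 ± 0.08 (adjusted p = 0.00101) in WT and 0.44 ± 0.08 (adjusted p = 0.0014) in Acod1-/-, and its WT value without replicate 2 was 0.34 ± 0.07 (adjusted p = 0.00195). Psmd9 gave 0.26 ± 0.13 (adjusted p = 0.137) in WT. Its WT OI+PM libraries were at 29.3 and 39.3 normalized CPM, the first of them between the WT PM libraries at 25.9 and 31.5. Among the 20S chaperones none passed; Psmg3 was the highest in WT at 0.41 ± 0.20 (adjusted p = 0.123) and Psmg2 the lowest at -0.04 ± 0.16 (adjusted p = 0.87), with 0.35 ± 0.17 (adjusted p = 0.117) for Psmg1 and 0.29 ± 0.19 (adjusted p = 0.249) for Psmg4. Psme4 (PA200) rose in both genotypes, by 0.34 ± 0.10 (adjusted p = 0.0153) and 0.34 ± 0.10 (adjusted p = 0.0198), calls that held in 19 and 18 of 23 alternatives and were lost with total count scaling in both, with the compared groups alone in WT, without WT PM replicate 2 or WT OI+PM replicate 1 in WT and without any 1 of the 4 Acod1-/- PM and OI+PM libraries in Acod1-/-. Psme3 gave 0.12 ± 0.06 (adjusted p = 0.121) in WT and rose by 0.18 ± 0.06 (adjusted p = 0.0386) in Acod1-/-, a call that held in 9 of 23 alternatives. Psmf1 rose by 0.30 ± 0.08 (adjusted p = 0.0148) in WT, with 0.22 ± 0.09 (adjusted p = 0.0665) without replicate 2, and gave -0.02 ± 0.08 (adjusted p = 0.873) in Acod1-/-, a difference between genotypes that the interaction test did not call (adjusted p = 0.745). Psma8 gave 0.43 ± 0.17 (adjusted p = 0.0621) in WT.

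Psme1, Psme2 and Psmd10, which rose with PM in both genotypes, did not rise with OI in either. Psme2 went from 92.1 and 70.2 normalized CPM in Acod1-/- PM to 51.0 and 53.7 in Acod1-/- OI+PM, with no overlap, and fell by 0.63 on the log2 scale (SE = 0.19, adjusted p = 0.0253), a call lost without Acod1-/- PM replicate 1 or either Acod1-/- OI+PM library (adjusted p up to 0.196). In WT the OI+PM libraries of Psme2, at 49.0 and 75.2, overlapped those of PM, and the log2 fold change was -0.36 ± 0.19 (adjusted p = 0.144), or -0.70 ± 0.15 (adjusted p = 0.00341) without WT OI+PM replicate 2. Psme1 gave -0.41 ± 0.13 (adjusted p = 0.0322) in Acod1-/- and -0.19 ± 0.13 (adjusted p = 0.247) in WT, the latter -0.44 ± 0.09 (adjusted p = 0.00334) without that library. Psmd10 gave -0.40 ± 0.13 (adjusted p = 0.0364) in Acod1-/- and -0.22 ± 0.13 (adjusted p = 0.184) in WT, the latter -0.45 ± 0.10 (adjusted p = 0.0047) without it. The Acod1-/- calls of Psme1 and Psmd10 each held in 15 of 23 alternatives (adjusted p up to 0.16 and 0.205), and both were lost without either WT Control library or any 1 of the 6 Acod1-/- libraries. Psme2b fell in both genotypes, at -0.45 ± 0.12 (adjusted p = 0.013) in WT and -0.88 ± 0.12 (adjusted p = 0.000239) in Acod1-/-, from 4.35 and 4.26 to 2.40 and 2.28 normalized CPM in the latter, and its WT call was lost without WT OI+PM replicate 1. Exons of Psme1 overlap those of Emc9 on the other strand, and whether the counting used strand is not given in the sources used here. The only exon of Psme2b overlaps the gene 9930111J21Rik1 on the same strand, so the counts behind its fall are less certain.

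The 3 immunoproteasome genes, which are outside the 46, also rose with PM in both genotypes, and all 3 fell with OI in Acod1-/-. Psmb8 (LMP7) had normalized CPM of 80.6 and 81.1 in WT Control, 118 and 145 in WT PM and 91.8 and 129 in WT OI+PM, and 83.0 and 83.7 in Acod1-/- Control, 145 and 134 in Acod1-/- PM and 95.4 and 104 in Acod1-/- OI+PM. It rose with PM by 0.70 ± 0.15 (adjusted p = 0.00762) in WT and 0.74 ± 0.15 (adjusted p = 0.00495) in Acod1-/-, and with OI it gave -0.25 ± 0.15 (adjusted p = 0.195) and -0.48 ± 0.15 (adjusted p = 0.0284). Psmb9 (LMP2) rose with PM by 0.48 ± 0.12 (adjusted p = 0.0164) and 0.78 ± 0.12 (adjusted p = 0.00102) and fell with OI in both genotypes, at -0.79 ± 0.12 (adjusted p = 0.000502) and -1.05 ± 0.12 (adjusted p = 7.53e-05). Psmb10 (MECL-1) rose by 0.95 ± 0.18 (adjusted p = 0.00382) and 1.03 ± 0.18 (adjusted p = 0.00209) with PM and gave -0.37 ± 0.17 (adjusted p = 0.111) and -0.66 ± 0.17 (adjusted p = 0.0147) with OI. The Acod1-/- falls of Psmb8 and Psmb10 were called in 19 and 20 of 23 alternatives (adjusted p up to 0.163 and 0.0959), and neither was without Acod1-/- PM replicate 1 or either Acod1-/- OI+PM library, nor Psmb8 without Acod1-/- PM replicate 2. In WT the PM calls of Psmb8 and Psmb9 were lost without WT PM replicate 2 or either WT Control library. Psmb8 and Psmb10 also fell with OI in WT once WT OI+PM replicate 2 was left out, at -0.52 ± 0.11 (adjusted p = 0.00354) and -0.73 ± 0.11 (adjusted p = 0.000315). In Acod1-/- OI+PM, Psmb9 was at 18.4 and 19.1 normalized CPM, under both Acod1-/- Control libraries at 23.6 and 21.6, whereas its constitutive counterpart Psmb6 was at 189 and 192, above both Control libraries at 139.6 and 138. Of 11 immunoproteasome and antigen presentation genes on a list that includes these 3, 9 rose and none fell with PM in WT, and none rose and 7 fell with OI (10 fell without WT OI+PM replicate 2, where 22.2% of all genes did); in Acod1-/- the counts were 10 and 0, then 0 and 9. Of all genes, 12.6% and 12% rose with PM in WT and Acod1-/-, and 22.6% and 20.6% fell with OI.

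**Figure D4:**
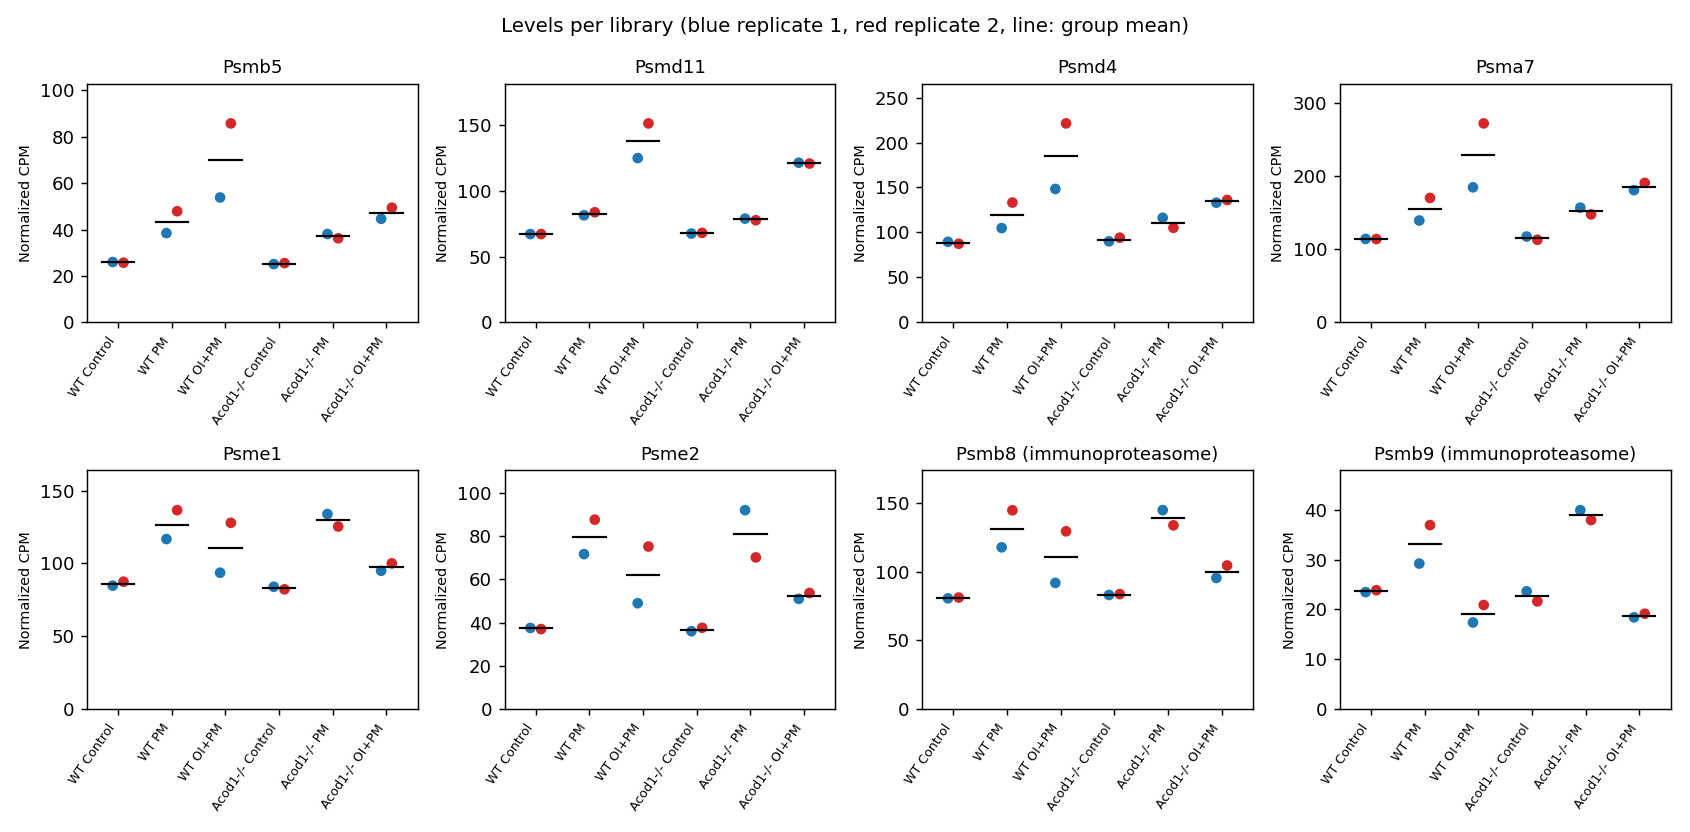
Normalized CPM (vertical axes, linear from 0, scaled per gene) of 8 genes in the 6 groups; blue points are replicate 1, red points replicate 2, and lines are group means. Psmb5, Psmd11, Psmd4 and Psma7 climb from Control to PM to OI+PM, and Psme1, Psme2, Psmb8 and Psmb9 peak in PM.

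Against vehicle, OI+PM raised nearly the whole set in WT. These comparisons share libraries with those above and add both steps together. In WT, 42 of the 46 rose and 2 (Psme2b and Psmc3ip) fell, where 33.6% of all genes rose and 31.9% fell (65.5% in either direction), with a median log2 fold change of 0.60 against 0.02 over all genes. All 31 subunit genes rose and had no overlap between groups, the latter as 41.3% of all genes. In Acod1-/-, 22 of the 46 rose and 2 fell, where 22.7% and 26.7% of all genes did (49.4% in either direction), and the median was 0.35. All 31 subunit genes had both OI+PM libraries above both Control libraries, as 42.6% of all genes did. Psmc3ip, counted among the falls in both genotypes, passed the minimum only in Control and PM libraries, so its fall is no result here either. Proteasome genes past 2-fold in WT were Psmb5 at 1.43 ± 0.19 (adjusted p = 0.000111) or 2.70-fold, Psma5 at 1.15 ± 0.19 (adjusted p = 0.000472), Psmd4 at 1.06 ± 0.17 (adjusted p = 0.000391), Psmd11 at 1.04 ± 0.08 (adjusted p = 3.59e-06) and Psma7 at 1.0 ± 0.16 (adjusted p = 0.000359), where 16.1% of all genes were called at that size. Without WT OI+PM replicate 2 only Psmb5 of these 5 stayed past 2-fold, at 1.06 ± 0.11 (adjusted p = 1.46e-05), with 0.80 for Psma5, 0.75 for Psmd4, 0.90 for Psmd11 and 0.70 for Psma7, all still called, where 13.7% of all genes were called at that size. In Acod1-/- no proteasome gene passed 2-fold, where 13.1% of all genes did; the highest were Psmd5 at 0.92 ± 0.08 (adjusted p = 5.65e-06) and Psmb5 at 0.90 ± 0.19 (adjusted p = 0.00281). The Acod1-/- count was 14 and 15 without Acod1-/- Control replicate 2 or 1 (35.1% of all genes in each), 15 without Acod1-/- OI+PM replicate 2 (34.4%), and 38 without either WT OI+PM library (without replicate 2, 61.4% of all genes were called). Scaled by total counts, which moved the median of all genes to -0.20 in WT and -0.15 in Acod1-/-, 30 rose and 2 fell in WT, and 15 rose and 2 fell in Acod1-/-, where 65.8% and 51.1% of all genes were called. Without WT OI+PM replicate 2, 32 rose and 2 fell in WT (median 0.38), where 27.2% and 28.2% of all genes did (55.4% in all), and 28 of the 31 subunit genes rose. Under the length-adjusted fit 36 rose and 2 fell in WT and 24 rose and 3 fell in Acod1-/-, where 67.5% and 55.4% of all genes were called, and the proteasome genes past 2-fold upward were Psmd11 and Psmd5 in WT and Psmd5 in Acod1-/-.

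Genotype was compared within each exposure. By edgeR's test, no member differed between Acod1-/- and WT in Control or PM cells, where 1.83% and 2.4% of all genes did; at an unadjusted p under 0.05 the counts were 0 and 1 of 46, against 10.2% and 14% of all genes, and DESeq2 called none in either, against 2.73% and 3.87% of all genes. In OI+PM cells 1 member was lower in Acod1-/- and none higher, where 4.45% and 2.51% of all genes were (6.96% in either direction), while DESeq2 called 4, against 11.8% of all genes. At an unadjusted p under 0.05, 11 of the 46 differed in OI+PM cells (23.9%), 10 of them lower in Acod1-/-, against 29.2% of all genes. The called gene was Psmd8, with 340.5 and 345 normalized CPM in Acod1-/- OI+PM against 407 and 541 in WT OI+PM. It was lower in both knockout libraries, at -0.47 ± 0.12 (adjusted p = 0.0445), and the difference was -0.20 ± 0.12 (adjusted p = 0.716) in Control and -0.20 ± 0.12 (adjusted p = 0.501) in PM cells. The median log2 difference over the 46 was 0.02 in Control, -0.06 in PM and -0.22 in OI+PM cells, against 0.01, 0.00 and -0.03 over all genes. The median in OI+PM cells was 0.01 without WT OI+PM replicate 2, with 24 of the 46 higher in Acod1-/- and 22 lower (5577 and 5651 of all genes), so the lower level in Acod1-/- rests on that library. The largest difference in OI+PM cells was that of Psmb5, at -0.57 ± 0.18 (adjusted p = 0.085), or -0.19 ± 0.11 (adjusted p = 0.402) without that library, where Psmd8 was -0.25 ± 0.08 (adjusted p = 0.14). No member was called in OI+PM cells with any 1 library left out other than the WT PM libraries and WT OI+PM replicate 1, and without the latter 40 were, where 48.6% of all genes were called.

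Whether OI acted differently in the 2 genotypes was tested as an interaction. The log2 fold change was larger in WT than in Acod1-/- for 42 of the 45 proteasome genes, against 6197 of all 11228 genes, with a median interaction of -0.17 over the 46 against -0.03 over all genes. This lean turned without WT OI+PM replicate 2, where 10 of the 45 had the larger log2 fold change in WT (5776 of all genes), the median was 0.05 in WT and 0.11 in Acod1-/- over the 46, and the median interaction was 0.05. Without replicate 1 instead, 42 of the 45 were larger in WT (6102 of all genes), and the median interaction over the 46 was -0.39. No member passed, and neither did any of the 11228 genes (0%); at an unadjusted p under 0.05 the count was 2 of 46 (4.35%) and 717 of all genes (6.39%), and DESeq2 called no member, against 0.303% of all genes. For Psmb5 the interaction was -0.35 ± 0.26, with a 95% interval of -0.93 to 0.22, and for Psmd11 -0.11 ± 0.12, with an interval of -0.37 to 0.15. Both were close to 0 without WT OI+PM replicate 2, at 0.02 ± 0.15 and 0.03 ± 0.08. The interval for Psmb5 includes differences larger than its OI effect in either genotype, so the data do not show that the genotypes responded alike. With WT OI+PM replicate 1 left out 6 members passed, where 4.68% of all genes did, and with replicate 2 left out neither a member nor any other gene did. For the PM effect no member passed either (0% of all genes), with 0 of 46 at an unadjusted p under 0.05, none by DESeq2 (0.0267% of all genes), and a median of -0.08. Over the 45 proteasome genes the OI effects in the 2 genotypes, which share no library, had a Pearson r of 0.89 across genes, against 0.95 over all genes; genes are not independent replicates.

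**Figure D5:**
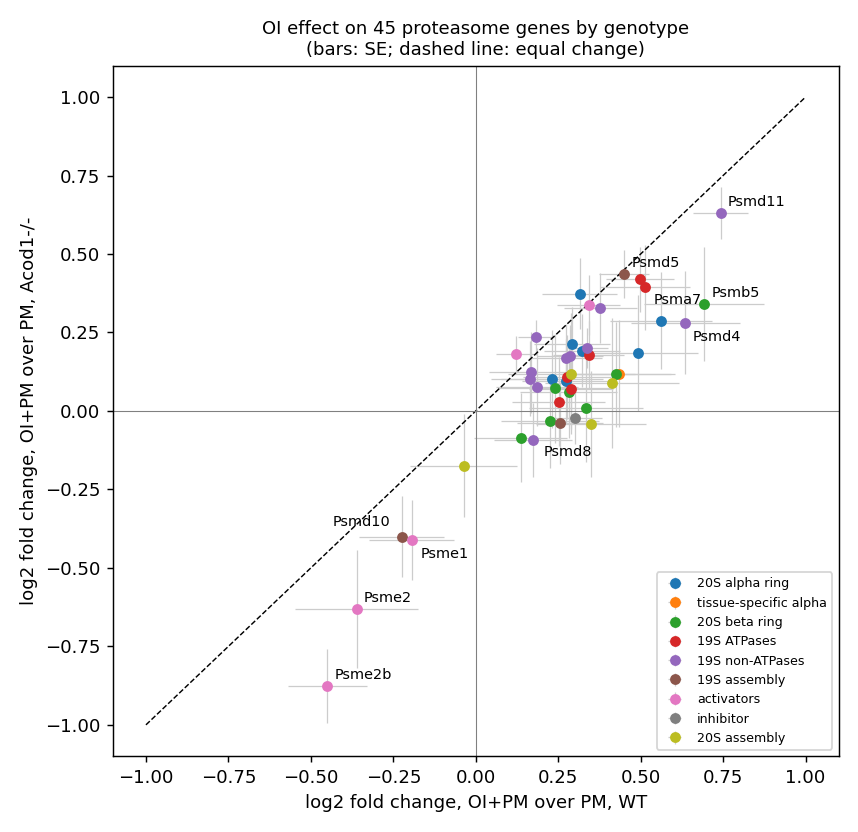
Log2 fold change of OI+PM over PM in WT (horizontal axis) and Acod1-/- (vertical axis) for the 45 proteasome genes, coloured by role, with SE bars; the dashed line marks equal change. With all libraries 42 genes lie under the line (10 without WT OI+PM replicate 2 and 42 without replicate 1), Psmd11 is farthest to the upper right, and Psme2b, Psme2, Psme1 and Psmd10 are lowest in both.

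Other genes of the ubiquitin-proteasome system were read from a list of 34, of which 33 were tested. In WT 8 rose and 3 fell with PM, and 16 rose and 1 fell with OI; in Acod1-/- the counts were 6 and 2, then 10 and 1. Of all genes, 12.6% rose and 12.2% fell with PM and 21.3% rose and 22.6% fell with OI in WT, and 12% and 11.9%, then 13.9% and 20.6%, in Acod1-/-. The median log2 fold change with OI was 0.25 in WT and 0.19 in Acod1-/-, against 0.02 and 0.00 over all genes. With WT OI+PM replicate 2 left out, 12 rose and 1 fell with OI in WT, where 18.4% and 22.2% of all genes did, and the median was 0.17. Pomp, the chaperone that completes the core, gave 0.45 ± 0.16 (adjusted p = 0.0656) with PM and 0.43 ± 0.16 (adjusted p = 0.0521) with OI in WT, and over both steps it rose by 0.88 ± 0.16 (adjusted p = 0.000999). Its WT values were 0.12 ± 0.11 (adjusted p = 0.428) with OI and 0.57 ± 0.11 (adjusted p = 0.00109) over both steps without WT OI+PM replicate 2. The 19S subunit genes on the list did not pass with either step. Adrm1 (Rpn13), a ubiquitin receptor, gave 0.40 ± 0.19 (adjusted p = 0.149) with PM and 0.50 ± 0.19 (adjusted p = 0.0546) with OI in WT, and 0.22 ± 0.20 (adjusted p = 0.43) and 0.40 ± 0.19 (adjusted p = 0.134) in Acod1-/-. Sem1 (Rpn15) gave 0.45 ± 0.21 (adjusted p = 0.131) and 0.26 ± 0.21 (adjusted p = 0.342) in WT, and 0.25 ± 0.21 (adjusted p = 0.395) and 0.00 ± 0.21 (adjusted p = 0.994) in Acod1-/-. With WT OI+PM replicate 2 left out the WT values with OI were 0.20 ± 0.17 (adjusted p = 0.367) for Adrm1 and -0.19 ± 0.13 (adjusted p = 0.264) for Sem1, while Adrm1 and Sem1 passed with PM in WT (adjusted p = 0.0402 and 0.00537) and Adrm1 with OI in Acod1-/- (adjusted p = 0.034). The largest rises with OI were those of Sqstm1 and Ecpas. Sqstm1, an autophagy receptor for ubiquitylated cargo, rose by 1.13 ± 0.12 (adjusted p = 3.14e-05) in WT and 0.84 ± 0.12 (adjusted p = 0.000258) in Acod1-/-. Ecpas, which binds 26S particles, rose by 1.07 ± 0.08 (adjusted p = 2.61e-06) and 0.83 ± 0.08 (adjusted p = 1.73e-05). At the other end of the genes called in WT, Nfe2l2 fell and Uba1, the main ubiquitin-activating enzyme, had the smallest log2 fold change, at 0.16 ± 0.06 (adjusted p = 0.0375). That call held in 10 of 23 alternatives (0.03 to 0.21, adjusted p up to 0.701) and was lost in 9 of the 12 fits with 1 library left out, while it held in 7 of the 11 other fits.

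Nfe2l1 had normalized CPM of 248 and 246 in WT Control, 255 and 235 in WT PM and 305 and 277 in WT OI+PM, and gave -0.01 ± 0.07 (adjusted p = 0.891) with PM and 0.25 ± 0.07 (adjusted p = 0.012) with OI in WT, a call lost without WT PM replicate 2, with total count scaling and with the compared groups alone. In Acod1-/- it was 261 and 260.2 in Control, 256 and 271 in PM and 288 and 289 in OI+PM, and gave 0.02 ± 0.07 (adjusted p = 0.874) and 0.13 ± 0.07 (adjusted p = 0.16). Nfe2l2 rose with PM by 0.49 ± 0.06 (adjusted p = 0.000257) and 0.51 ± 0.06 (adjusted p = 0.000159) and fell with OI, at -0.22 ± 0.06 (adjusted p = 0.0131) and -0.27 ± 0.06 (adjusted p = 0.00499). By contrast all 13 genes on a list of NRF2 targets rose in each genotype with PM and again with OI, with medians of 1.04 and 1.16 in WT and 1.03 and 1.22 in Acod1-/-, where 12.6% and 12% of all genes rose with PM and 21.3% and 13.9% with OI in WT and Acod1-/-. Nqo1 rose by 3.68 ± 0.11 (adjusted p = 3.96e-08) with PM and a further 2.33 ± 0.09 (adjusted p = 2.68e-08) with OI in WT, and Gclm by 1.66 ± 0.06 (adjusted p = 2.31e-07) and 1.68 ± 0.06 (adjusted p = 2.63e-08). The median of the 31 subunit genes over the same steps in WT was 0.35 and 0.29, the latter 0.11 without WT OI+PM replicate 2, where the NRF2 targets stood at 1.16 with OI. In Acod1-/- it was 0.27 and 0.17.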

How the data were processed

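The authors sequenced RNA from 12 BMDM libraries (50-base single reads per the study's methods), aligned reads with STAR 2.5.3a to GRCm38, checked quality with FastQC 0.11.5 and Picard 2.9.0, and counted reads per gene with featureCounts (version, strand setting and annotation not given in the sources used here). The deposited files hold these raw counts per Ensembl gene, whole numbers with no normalization, and 48349 of 48795 genes had a symbol. Genes above 1.5 CPM in at least 2 libraries were tested with edgeR 4.0.16 (R 4.3.3, limma 3.58.1) by the quasi-likelihood test, with TMM scaling, 1 mean per group over all 12 libraries (residual degrees of freedom 6) and Benjamini-Hochberg adjustment over all 11228 genes. An adjusted p of 0.05 or less was called as rose or fell, and SE is the log2 fold change over the square root of F. Normalized CPM is counts per 1000000 after TMM. The code was tested on simulated counts. Total counts were 33616577 to 36817898 per library. The spread between replicates was set against counting noise over genes of the whole table, and not for the subunit genes alone.

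The symbol rule fixed the members, and members and lists were chosen with earlier results of these data known. Genes named with values were the members past 2-fold, the highest and lowest of each role with OI in WT, the catalytic, receptor, activator, inhibitor and chaperone genes, genotype calls, and, outside the 46, a few regulators, immunoproteasome genes and NRF2 targets. Other genes named in a count were chosen after their values were seen. Alternatives were DESeq2 1.42.0, RLE or total count scaling, other filters, the compared groups alone, a replicate block, a gene length offset (lowess span 0.3) and each library left out. The length-adjusted fit is that offset. An offset within groups and a block with exchanged numbers were added after the data were seen.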

Additional observations from a re-analysis of the deposited data

How the results depend on the processing

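Counts are of the 46 genes called, each with the percentage of all genes called in the same fit, and the main count comes first. PM in WT gave 13 (24.8%), against 20 (28.1%) with DESeq2, 22 (23.1%) with the compared groups alone, 32 (16.2%) with no filter on low counts, 20 (29.6%) with the gene length offset, 20 (30.9%) with offset and replicate block, 32 (43.3%) with the offset within groups and 28 (36.2%) with the exchanged block. PM in Acod1-/- gave 7 (23.9%), against 13 (25.9%), 36 (50.4%), 19 (14.8%), 13 (29.5%), 14 (30.1%), 22 (39%) and 14 (31.9%) in the same order, and its median of 0.26 became 0.16 with the offset and 0.16 with offset and block. OI in WT gave 18 (43.9%), against 2 (17.3%) with the compared groups alone, 30 (23%) with no filter and 33 (54.7%) with the offset within groups. OI in Acod1-/- gave 15 (34.6%), against 23 (51.6%) with the compared groups alone and 9 (34.1%) with total count scaling. OI+PM against Control gave 44 (65.5%) in WT, against 29 (45.3%) with the compared groups alone, and 24 (49.4%) in Acod1-/-, against 43 (74.4%) with those groups alone, 37 (26.6%) with no filter and 37 (59.8%) with the offset within groups. Genotype gave 0 (1.83%) in Control, against 6 (20.6%) with the compared groups alone, and 1 (6.96%) in OI+PM, against 4 (11.8%) with DESeq2, 0 (0.0178%) with those groups alone, 10 (9.36%) with no filter, 4 (15.3%) with the offset, 6 (16.8%) with offset and block, 15 (28.8%) with the offset within groups and 5 (16.7%) with the exchanged block. With no filter the percentage is of a longer table that includes genes with few counts. The cause of each difference was not tested.

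With 1 library left out, the lone library of its group was taken to vary like the others. Counts then ran from 2 to 36 for PM in WT (median 0.22 to 0.45; 10.6 to 45% of all genes), 4 to 27 for PM in Acod1-/- (0.19 to 0.33; 12.4 to 39.8%), 8 to 37 for OI in WT (0.05 to 0.48; 32.6 to 60.3%), 5 to 21 for OI in Acod1-/- (0.07 to 0.15; 23.9 to 44.8%), 32 to 44 and 14 to 38 for OI+PM against Control in WT and Acod1-/- (50 to 74.1% and 34.4 to 61.4%), 0 to 40 for genotype in OI+PM (0.846 to 48.6%), and 0 to 6 for the OI interaction (0 to 4.68%). They were 0 throughout for genotype in Control (0.463 to 3.51%) and in PM (0.659 to 6.22%) and for the PM interaction (0%).

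Among single genes called as reported, 3497 of the alternative values kept direction and call, 453 kept direction without the call, and 2 changed sign, both for Psmd10 in OI+PM against Control in WT, at -0.057 with the offset and -0.057 with offset and block.

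The replicate numbers of the labels were not taken as pairs. Deviations of same-numbered libraries correlated by 0.73 between WT OI+PM and WT PM, 0.23 and 0.24 of WT Control with WT PM and WT OI+PM, -0.09, -0.06 and -0.04 for the matching Acod1-/- pairs, and -0.05, -0.41 and 0.25 between the genotypes in Control, PM and OI+PM. With the replicate block the counts were 19 and 8 for PM (27.4% and 25.5% of all genes), 20 and 15 for OI (45.7% and 35.6%) and 44 and 27 for OI+PM against Control (66.6% and 51%) in WT and Acod1-/-, 0, 0 and 1 for genotype in Control, PM and OI+PM (1.71%, 2.27% and 7.84%), and 0 for each interaction (0%). The exchanged block gave 28 and 14 for PM (36.2% and 31.9%) and 27 and 15 for OI (50.4% and 39.3%).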
